A study of Mus musculus with 2 samples.

Results

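The mouse genes named Olfr plus a number on chromosome 2 encode olfactory receptors. In the RefSeq table of GRCm38.p6, the assembly that mm10 represents, 286 protein-coding genes carried such a name on this chromosome, of 21887 protein-coding genes on the autosomes and sex chromosomes. A gene was counted with a peak when a peak summit lay in the gene body or within 1 kb of either end. The rule uses names and positions and no peak values, but it was set with earlier results of these data known. They were compared with the sequence between the genes of the same clusters and with 1 Mb on either side of each cluster.

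The study used ChIP-seq, in which chromatin fragments bound by an antibody are sequenced. The antibody was sc-9996, against GFP, and the tissue was snap-frozen mouse embryo heads at E10.5. The series concerns functions of the core histone H3.2 in the eye. Both libraries carry the same labels, so they form 1 group with no second condition, and they are called library 1 and library 2. The labels give no strain, sex or number of pooled embryos, do not name the protein that carries GFP, and do not say whether either library is a control. Library 2 stood apart, with 348 peaks on all sequences against 584724 in library 1. All values are therefore given per library, and none describes a difference between animals. The lists hold no read totals, and every interval here is a 95% exact interval that covers counting error only. Where a count was 0, the upper limit given is that of 3 counts.

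Olfactory receptors are G protein-coupled receptors of the sensory neurons in the nasal epithelium. A mature neuron expresses a single receptor allele, and the other receptor genes of that neuron are kept silent in heterochromatin. Transcription factors of the Ebf family and the homeodomain protein Lhx2, with its partner Ldb1, act on receptor genes and their enhancers. The chromosome 2 genes belong to the large class II of tetrapod receptors. At the stage sampled, the olfactory placodes are only folding into pits, and most cells of the head are not olfactory neurons. No expression was measured here.

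The genes formed 3 clusters, in which members were less than 1 Mb apart. Cluster 1 held 27 genes from Olfr338 to Olfr368 (chr2:36376778-37332732, 0.956 Mb). Cluster 2 held 222 genes from Olfr987 to Olfr1274 (chr2:85330967-90401674, 5.07 Mb). Cluster 3 held 37 genes from Olfr1275 to Olfr1318 (chr2:111230853-112157007, 0.926 Mb). The genes were short, with a median length of 945 bp, and 249 were under 1.2 kb. The length of 227 of the 286 was a multiple of 3, so most annotated lengths are coding lengths without untranslated sequence. The longest, Olfr1280, spanned 60182 bp.

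The start of a gene is where a promoter peak would lie, so windows of 300 bases, from 250 before to 50 after an annotated start, were taken from the RefSeq table. Windows were given for 242 of the 286 genes, 244 windows in all. In 182 of them (74.6%, 68.6 to 79.9) the annotated start was the start codon ATG itself. For those genes the window shows the sequence before the coding region and need not be the promoter. The 4 windows printed here belong to Olfr354, which had the strongest peak of the group, to Olfr1057 and its close copy Olfr1062, which differed in their peaks, and to Olfr1055, chosen for its low GC content and its homeodomain motif. Each runs 5′ to 3′ on the strand of its gene, and capitals mark the start codon ATG and every TAATTA, the core of homeodomain binding sites. The windows are chr2:36906698-36906997 (plus strand) for Olfr354, chr2:86375361-86375660 (minus strand) for Olfr1057, chr2:86423625-86423924 (minus strand) for Olfr1062 and chr2:86347715-86348014 (minus strand) for Olfr1055.
Olfr354: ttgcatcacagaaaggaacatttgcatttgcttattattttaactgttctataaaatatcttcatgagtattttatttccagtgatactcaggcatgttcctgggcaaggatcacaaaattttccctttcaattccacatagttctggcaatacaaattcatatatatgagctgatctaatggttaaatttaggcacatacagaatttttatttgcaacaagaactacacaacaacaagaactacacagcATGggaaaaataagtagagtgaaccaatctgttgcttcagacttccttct
Olfr1057: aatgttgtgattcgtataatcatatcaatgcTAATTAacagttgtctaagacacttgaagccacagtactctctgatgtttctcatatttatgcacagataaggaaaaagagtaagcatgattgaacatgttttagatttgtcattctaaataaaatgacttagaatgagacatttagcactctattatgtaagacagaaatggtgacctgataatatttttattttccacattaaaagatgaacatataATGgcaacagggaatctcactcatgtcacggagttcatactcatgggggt
Olfr1062: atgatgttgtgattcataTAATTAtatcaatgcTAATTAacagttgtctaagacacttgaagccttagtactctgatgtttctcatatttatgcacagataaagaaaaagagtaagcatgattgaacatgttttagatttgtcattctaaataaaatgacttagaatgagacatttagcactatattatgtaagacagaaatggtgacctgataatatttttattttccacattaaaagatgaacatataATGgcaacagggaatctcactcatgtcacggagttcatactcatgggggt
Olfr1055: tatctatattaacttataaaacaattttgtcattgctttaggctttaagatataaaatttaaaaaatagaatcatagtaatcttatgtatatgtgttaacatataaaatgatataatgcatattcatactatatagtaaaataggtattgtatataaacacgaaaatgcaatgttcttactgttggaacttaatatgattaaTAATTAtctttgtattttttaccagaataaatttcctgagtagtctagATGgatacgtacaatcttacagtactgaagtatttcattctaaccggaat
The windows had a GC content of 33.3% for Olfr354, 32.7% for Olfr1057, 31.0% for Olfr1062 and 23.3% for Olfr1055. No library 1 peak touched any of these 4 windows.

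Few receptor genes of chromosome 2 had a library 1 peak. A summit lay in the body or within 1 kb for 29 of 286 genes (10.1%, 6.90 to 14.2), where 87.4% of all protein-coding genes had one. The median length was 945 bp for the receptor genes and 17169 bp for all protein-coding genes, and longer windows can hold more summits. Among other autosomal protein-coding genes under 1.2 kb, outside the chemosensory receptor families, the share was 67.3%. Of the 29 genes, 23 had 1 summit, 5 had 2 and 1 had 3, and the other 257 had none. Together the windows held 35 distinct peaks in 1066 kb, or 32.8 summits per Mb (22.9 to 45.7). Most of the summits, 23, lay inside a gene body, 5 lay upstream in the reading direction and 7 downstream.

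The share was lower than that of all genes, most of which are longer, under each rule of counting tried. With gene bodies alone, 19 of 286 genes had a summit, against 85.7% of all protein-coding genes. With any overlap of a peak and the 1 kb window, the number was 31, against 87.5%. Within 5 kb of either end it was 116, against 91.7%. Among peaks with a −log10 q of at least 5, 13 genes had a summit, against 75.4%, and among the 10% of library 1 peaks with the highest fold enrichment 3 genes did, against 49.97%. Olfr1221 was the gene nearest to the 1 kb limit on the inside, with a summit at 990 bp, and Olfr1254 was nearest on the outside, at 1073 bp. Genes without a peak had their nearest summit at a median distance of 6.82 kb (quartiles 4.17 and 12.5), and the farthest was Olfr1217, at 45.4 kb.

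The strongest peak lay in Olfr354 of cluster 1, inside the gene body. It spanned chr2:36907315-36907526 with a fold enrichment of 7.27 over background, as the authors' caller gave it, and a −log10 q of 13.1. Its summit rested on a pileup of 26 overlapping extended reads (17.0 to 38.1) over a background of 2.71. Olfr1057, in cluster 2, had a peak inside its body at chr2:86374945-86375329 whose fold was 5.66 at a pileup of 20 reads (12.2 to 30.9). Olfr1055, in the same cluster, had an equal fold and pileup at chr2:86346400-86346766, with the summit 42 bp downstream of the gene. The intervals of these 3 pileups overlap, so their order was not resolved.

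Lower folds followed in 7 further genes. Olfr365 and Olfr1186 had best folds of 4.85 and Olfr1166 had 4.82. A fold of 4.58 was shared by Olfr352, Olfr1198, Olfr1221 and Olfr1272, because each had a pileup of 16 reads over the same background. Across all 35 peaks the pileup ranged from 9 to 26 reads, with a median of 14.0. The most summits, 3, lay in Olfr1033, a gene annotated over 24169 bp, with folds from 2.69 to 4.04. Olfr362, Olfr365, Olfr368, Olfr1221 and Olfr1280 had 2 each, and 1 of the 2 in Olfr1280 also lay in Olfr1283, a shorter gene within the same span.

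Strength could be compared only among peaks that the caller kept, which limits how low a fold can be. A −log10 q of at least 5 was reached by 37.1% (21.5 to 55.1) of the peaks at receptor genes. The share was 50.1% (45.5 to 54.7) between the genes of the clusters and 40.2% (37.8 to 42.7) in the flanks. The interval for the peaks at receptor genes overlaps both others. The median fold of the peaks at receptor genes was 3.77 (quartiles 3.50 and 4.58). It was 4.04 (3.46 and 4.85) between the genes of the clusters and 3.85 (3.31 and 4.58) in the flanks. Their median width was 149 bp (quartiles 129.5 and 250.5), against 202 bp (144 and 310.0) between the genes and 201 bp (149 and 311) in the flanks. The quartile ranges overlap and no interval was computed for the medians, so a difference in width was not resolved. A local background equal to the genome-wide value was found for 30 of the 35 peaks (85.7%, 69.7 to 95.2), for 75.3% (71.1 to 79.1) between the genes and for 68.0% (65.6 to 70.3) in the flanks. The interval for the 35 peaks overlaps both others.

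**Figure D1:**
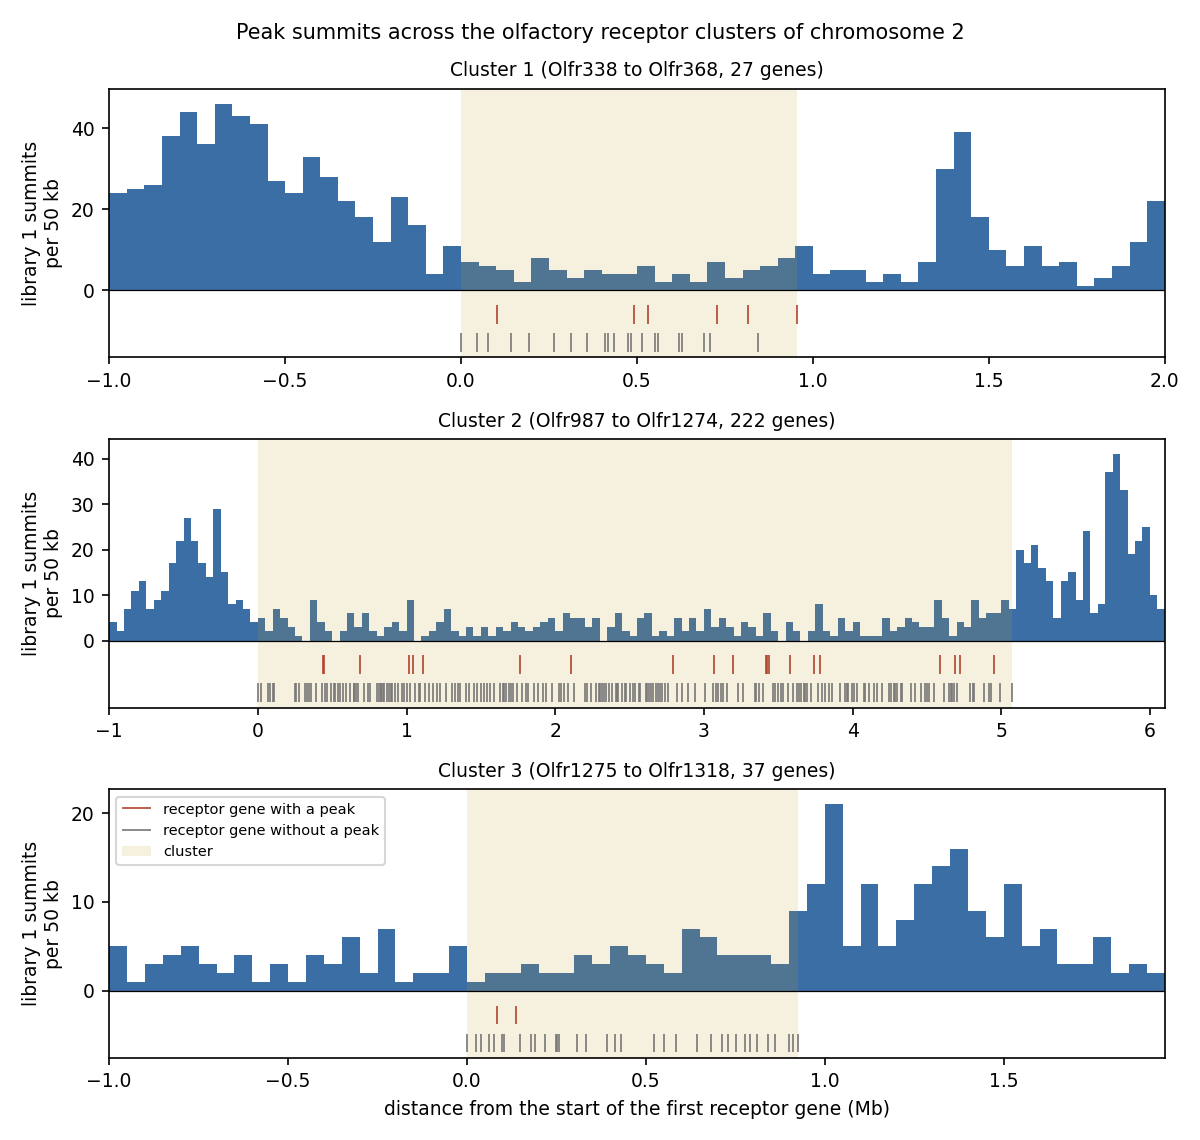
Library 1 summits per 50 kb across each receptor cluster and 1 Mb on either side, plotted against the distance from the first receptor gene in Mb. The shaded span is the cluster, and ticks mark the starts of receptor genes, with a peak in the upper row and without a peak in the lower row. Summits were sparse along all 3 spans, and beside cluster 3 they were as sparse on the lower side, at 64.0 per Mb. They were also sparse just beyond cluster 1 on the higher side, where the steps starting at 1.0 to 1.3 Mb held 2 to 7 summits. The next steps there held 30 and 39.

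The windows of receptor genes, with 1 kb at each end, held fewer summits than the sequence between them. The windows had 35 summits in 1066 kb (32.8 per Mb, 22.9 to 45.7), and the intergenic sequence of the clusters had 465 in 5838 kb (79.7 per Mb, 72.6 to 87.2). The ratio was 0.412 (0.284 to 0.582). At the intergenic density the windows would have held 84.9 summits. In cluster 2 the densities were 29.9 per Mb (19.1 to 44.4) in the windows and 75.6 (67.5 to 84.3) between the genes, a ratio of 0.395 (0.249 to 0.599). Cluster 3 had 2 summits in the 167 kb of its windows (1.45 to 43.2 per Mb), against 81.5 (62.5 to 104) between its genes, a ratio of 0.147 (0.0174 to 0.553). Cluster 1 did not show this within its counting error, with 94.6 per Mb (43.3 to 179.7) in the windows, 98.1 (78.2 to 121) between the genes and a ratio of 0.965 (0.426 to 1.92). A peak was found for 6 of 27 genes in cluster 1 (22.2%, 8.62 to 42.3), 21 of 222 in cluster 2 (9.46%, 5.95 to 14.1) and 2 of 37 in cluster 3 (5.41%, 0.661 to 18.2). These intervals overlap.

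Inside the clusters, summit density was higher farther from the receptor genes. It was 21.3 per Mb (11.0 to 37.3) within 1 kb of a gene body and 38.1 (23.6 to 58.3) at 1 to 2 kb. At 2 to 5 kb it was 59.5 (47.9 to 73.0), and at 5 to 10 kb it was 82.4 (69.5 to 97.0). Beyond that it was 99.6 (83.7 to 118) at 10 to 20 kb and 114 (88.9 to 144) over 20 kb away. Neighbouring steps have overlapping intervals, but the first and the last do not. The gene bodies themselves had 45.7 per Mb (29.0 to 68.6), and their density over that of the adjoining 1 kb was 2.15 (1.03 to 4.73). Against the 79.7 per Mb between the genes, the ratio was 0.574 (0.360 to 0.872) for the bodies and 0.267 (0.137 to 0.472) for the ends. Bodies of genes under 1.2 kb, which are mostly coding sequence, had 15 summits, or 62.7 per Mb (35.1 to 103). That interval holds the 79.7 per Mb between the genes, so fewer summits in these short bodies were not resolved. Longer bodies, outside the short ones, had 8, or 30.3 per Mb (13.1 to 59.8).

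**Figure D2:**
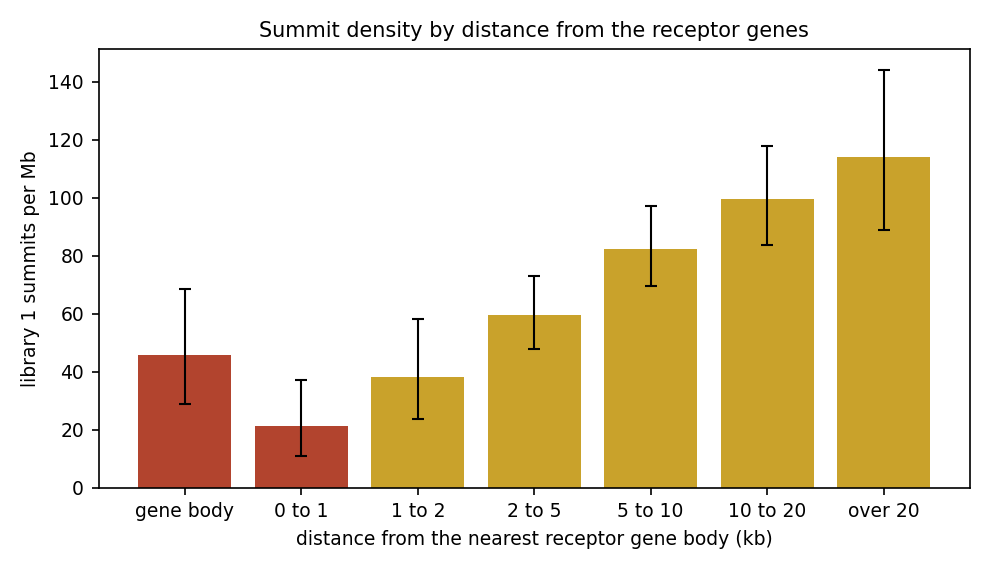
Library 1 summits per Mb inside the clusters, by distance in kb from the nearest receptor gene body, outside the 1 kb windows of other protein-coding genes. Bars are densities and error bars are 95% exact Poisson intervals, which cover counting error only. Density was lowest within 1 kb of a gene, at 21.3 per Mb, and highest beyond 20 kb, at 114.

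The flanks of the clusters held far more summits than the receptor genes. The receptor windows had 32.8 summits per Mb, and the 6 Mb of flanks had 1580 summits, or 263 per Mb (251 to 277), which gave a ratio of 0.125 (0.0865 to 0.174). Against the windows of the 84 protein-coding genes in the flanks, which had 278 per Mb (263 to 294), the ratio was 0.118 (0.0818 to 0.165). Of those 84 genes, 82 had a peak (97.6%, 91.7 to 99.7). The 2 without were Selenoh and Nop10, named after their values were seen. Against the rest of chromosome 2, at 257 per Mb (255 to 259.7), the ratio of the receptor windows was 0.128 (0.0888 to 0.177).

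The sequence between the receptor genes was also sparse in summits, relative to intergenic sequence outside the clusters. It had 79.7 summits per Mb, against 225 (203 to 249) for intergenic sequence in the flanks, a ratio of 0.353 (0.308 to 0.406). Intergenic sequence of chromosome 2 outside the clusters had 209.9 per Mb (207 to 213), and the ratio to it was 0.380 (0.345 to 0.416). In cluster 1 the ratio to the intergenic flanks was 0.255 (0.194 to 0.333) and in cluster 2 it was 0.344 (0.283 to 0.420). Cluster 3 differed from its flanks by less than the counting error, at 0.842 (0.572 to 1.24). Its lower flank, which holds 6 protein-coding genes, had 64.0 summits per Mb (49.3 to 81.7), and its higher flank had 168 (144 to 195). The flanks of cluster 1 were also unequal, with 541 per Mb (496 to 589) on the lower side and 189 (163 to 218) on the higher side.

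**Figure D3:**
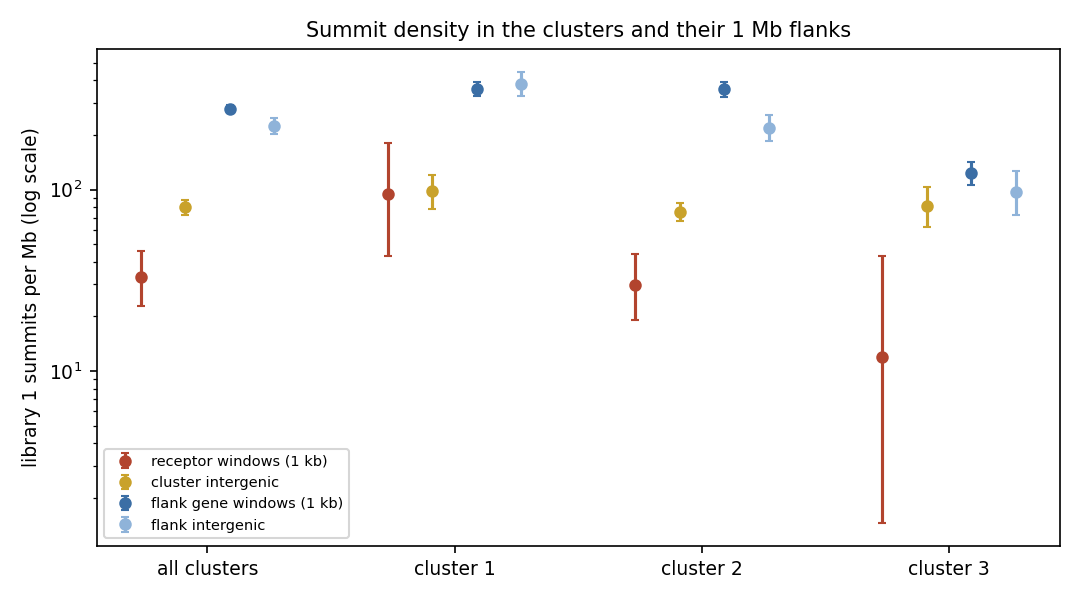
Library 1 summits per Mb on a log scale, for all clusters together and for each, in receptor windows, in the intergenic sequence of the cluster, in the gene windows of the 1 Mb flanks and in intergenic flank sequence. Points are densities and error bars are 95% exact Poisson intervals, which cover counting error only. Over all clusters the densities were 32.8, 79.7, 278 and 225, while in cluster 1 receptor windows and intergenic sequence overlapped.

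Long runs of neighbouring receptor genes had no peak, where 257 of all 286 had none. Whether the runs are longer than that share alone would give was not tested. The longest held 34 genes from Olfr1126 to Olfr1164 in cluster 2, over 637 kb, with 41 summits in the span but none within 1 kb of a receptor gene. A run of 31 genes from Olfr1222 to Olfr1257, over 757 kb, had 42 summits between its genes. In cluster 3, 28 genes from Olfr1284 to Olfr1318 had 59 summits in 778 kb. The widest stretch without any summit measured 99.97 kb (chr2:88969492-89069462), lay in cluster 2 and contained 6 receptor genes.

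Peaks were spread over many receptor subfamilies. The RefSeq synonyms give a MOR subfamily, a grouping of mouse odorant receptors by sequence, with a hyphenated number for 279 of the 286 genes. Another 4 genes have a MOR name without the hyphen and were not assigned, and 8 genes with names of 2 subfamilies count under the first. Of 55 subfamilies, 21 had a member with a peak. The largest, MOR245, had 22 assigned genes and no peak, and MOR231 with 14 assigned genes and MOR177 with 13 had none either. MOR225 had a peak at 3 of 11 genes and MOR230 at 3 of 8. Over all 286 genes the share was 10.1%, and at that share few peaks fall in groups of these sizes. No interval was computed by subfamily, so differences between subfamilies were not resolved. These subfamilies are named because of their size or count, after the values were seen, and genes of a subfamily often lie side by side.

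The start windows of receptor genes held no peak at all. In 182 of the 244 the annotated start was the start codon ATG, so those windows need not be promoters. None of 244 windows was touched by a library 1 peak, which allows a share of up to 1.23%, while 790 of 1624 windows of other protein-coding genes on chromosome 2 were touched (48.6%, 46.2 to 51.1). For receptor genes on other chromosomes, 47 of 700 windows were touched (6.71%, 4.97 to 8.83). At 25 to 40% GC, where most receptor windows lie, 0 of 219 receptor windows were touched. The counts were 42 of 744 windows of autosomal genes outside the receptor families (5.65%, 4.10 to 7.55) and 2 of 37 windows of other chromosome 2 genes (5.41%, 0.661 to 18.2). GC was not evenly matched in that range. With X and Y included, genes outside the receptor families had 37 of 622 windows touched at 35 to 40% GC, 6 of 163 at 30 to 35% and 0 of 28 at 25 to 30%. Receptor windows numbered 58, 109 and 52 in these steps. A summit within 1 kb of the window was found for 19 of 244 windows on chromosome 2 (7.79%, 4.75 to 11.9) and for 79.4% (77.4 to 81.4) of those of other chromosome 2 genes.

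Receptor start windows were poor in GC, with a median of 32.7% (quartiles 29.7 and 35.3), against 58.0% (50.9 and 65.7) for other protein-coding genes of chromosome 2. Windows with more GC had a peak nearby more often in the other genes. Among windows with 25 to 40% GC, 17 of 219 receptor windows had a summit within 1 kb (7.76%, 4.59 to 12.1). For autosomal genes outside the receptor families the number in that GC range was 225 of 744 (30.2%, 27.0 to 33.7). Receptor windows lie mostly lower in that range than the others. In the narrower steps that follow, the other genes are from all chromosomes, X and Y included. From 30 to 35% GC the shares were 10 of 109 receptor windows (9.17%, 4.49 to 16.2) and 32 of 163 windows of other genes (19.6%, 13.8 to 26.6), and the intervals overlap, as they do from 25 to 30%. From 35 to 40% GC they were 5 of 58 (8.62%) and 191 of 622 (30.7%, 27.1 to 34.5), and the intervals do not overlap. The part of GC content in the low counts was not tested. Within the receptor genes, those with a peak had a median GC of 33.0% (30.2 and 35.1) and those without had 32.7% (29.7 and 35.7).

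**Figure D4:**
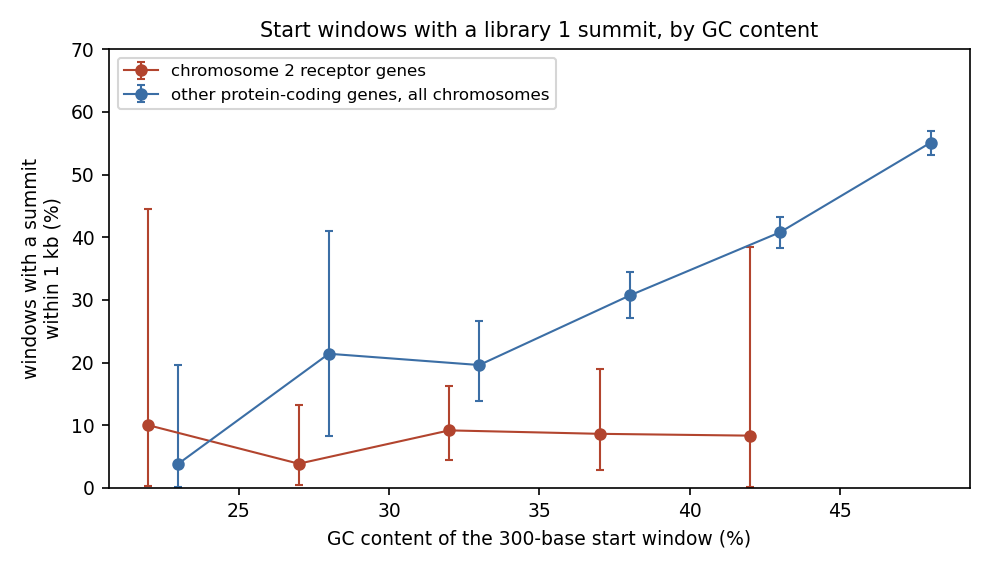
Percentage of 300-base start windows with a library 1 summit within 1 kb, by GC content in steps of 5 percentage points, for receptor genes of chromosome 2 and for other protein-coding genes outside the receptor families. Points are shares of steps with at least 10 windows, and error bars are 95% Clopper-Pearson intervals. From 25 to 40% GC the receptor windows stayed under 10%, and the other genes lay between 19.6% and 30.7%.

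Some receptor genes had close copies. The start windows of Olfr1506 and Olfr1565 were identical in all 300 bases, and those of Olfr1168 and Olfr1173 were 98.3% identical, and none of these 4 genes had a peak. Olfr1057, which had a peak, and Olfr1062, which had none, shared 96.7%, and Olfr1283 with a peak and Olfr1287 without shared 93.7%. The share of genes with a peak was 2 of 17 genes (11.8%, 1.46 to 36.4) where the closest other window was at least 90% identical, and 17 of 153 (11.1%, 6.61 to 17.2) where it was under 60%, and the intervals overlap. How reads of similar genes were placed is not recorded in the lists, and its part in the low densities was not tested.

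The homeodomain core TAATTA, searched on both strands, lay in 60 of 244 receptor start windows (24.6%, 19.3 to 30.5), and in 4.30% (4.03 to 4.58) of the windows of all other protein-coding genes. At 25 to 40% GC the shares were 24.2% (18.7 to 30.4) for receptor genes and 16.9% (14.3 to 19.6) for genes outside the receptor families. These intervals overlap, and the receptor windows lie mostly lower in that GC range. TAATTA was present in 6 of 28 windows of genes with a peak (8.30 to 41.0%) and in 54 of 216 of those without (19.4 to 31.3%). TCCCNNNGG, a loose pattern for Ebf sites that does not overlap TAATTA in its letters, was searched on both strands. It was found in 5.74% of receptor windows (3.17 to 9.44), against 23.7% (23.1 to 24.3) of all other protein-coding windows. At 25 to 40% GC the shares were 3.65% (1.59 to 7.07) for receptor genes and 5.54% (4.07 to 7.34) for genes outside the receptor families. These intervals overlap too. The full Ebf motif was found in 3 of 244 receptor windows (1.23%, 0.254 to 3.55), against 0.866% of all other protein-coding windows. A match is a description of the letters only.

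Short genes of other kinds had peaks more often than short receptor genes. Of the 249 receptor genes under 1.2 kb, 22 had a peak (8.84%, 5.62 to 13.1). Of other autosomal protein-coding genes under that length, outside the chemosensory receptor families, 348 of 517 had one (67.3%, 63.1 to 71.3). Receptor pseudogenes on chromosome 2, genes of this family annotated as no longer coding, had a peak in 5 of 90 cases (5.56%, 1.83 to 12.5).

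Receptor genes on other chromosomes carried peaks more often. Outside chromosome 2, 287 of 820 Olfr genes had a peak (35.0%, 31.7 to 38.4), at 151 summits per Mb (138 to 165). The share on chromosome 2, 10.1%, was the lowest of the 12 chromosomes with at least 20 such genes, but its interval of 6.90 to 14.2 overlapped those of chromosome 10 (13.2%, 6.23 to 23.6), chromosome 9 (14.0%, 8.48 to 21.2), chromosome 19 (12 of 63 genes, 10.2 to 30.9%) and chromosome 16 (19.4%, 8.19 to 36.0). Chromosome 11 had the highest share, 62 of 83 genes (74.7%, 64.0 to 83.6). In density, the chromosome 2 interval of 22.9 to 45.7 per Mb overlapped those of chromosomes 9 (28.8 to 66.9), 16 (32.3 to 104) and 19 (43.7 to 124). It did not overlap those of the other chromosomes with at least 20 such genes. Vmn1r genes, which encode vomeronasal receptors of similar length, had a peak in 37 of 230 cases (16.1%, 11.6 to 21.5). Their density was 50.1 summits per Mb (36.1 to 67.7). Both Vmn1r intervals overlap those of the chromosome 2 receptor genes.

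**Figure D5:**
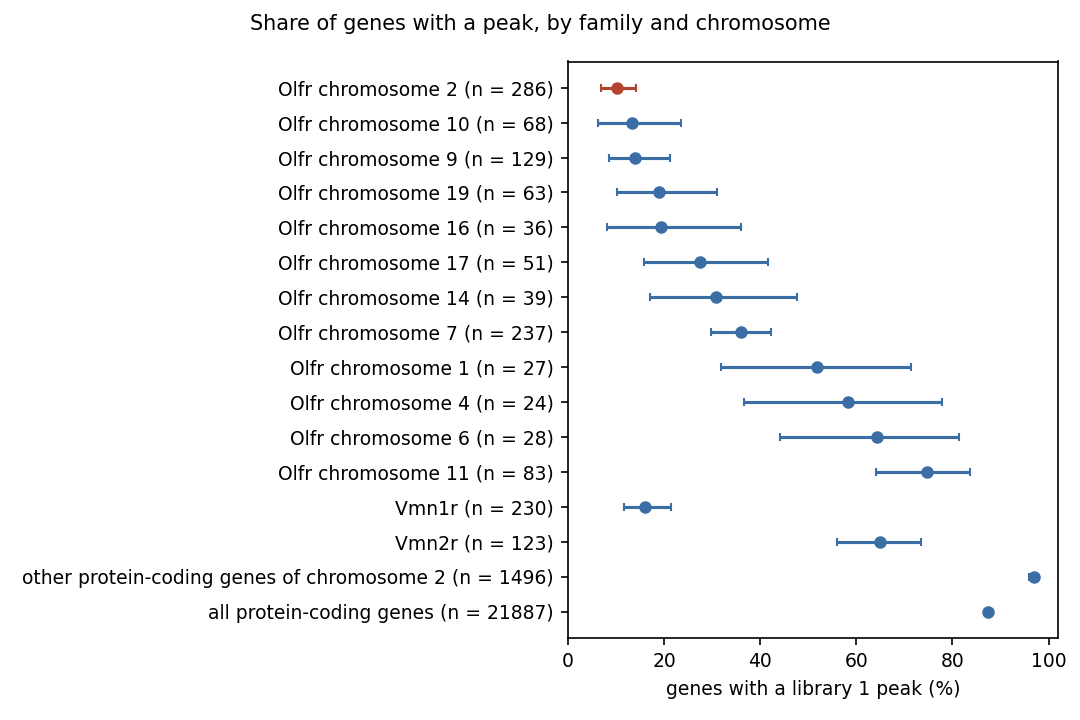
Percentage of genes with a library 1 summit in the body or within 1 kb, for Olfr genes of chromosome 2 and of each other chromosome with at least 20 of them, for Vmn1r and Vmn2r genes and for other protein-coding genes. Points are shares and error bars are 95% Clopper-Pearson intervals. Chromosome 2 receptors lay at 10.1%, and other protein-coding genes of the same chromosome at 96.9%.

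Genes that act in the receptor neurons mostly had a peak. Of 36 such genes, 35 had a library 1 peak (97.2%, 85.5 to 99.9), against 87.4% of all protein-coding genes, at 335 summits per Mb of window, beside 307 per Mb for all protein-coding genes. The interval of the share holds the share of all genes. By role, the density was 408 per Mb for signalling and maturation, 298 for receptor choice and silencing and 215 for the placode and early neurogenesis. These rest on 393, 353 and 46 summits, and of the 393, 86 lay at Slc24a4 and 81 at Ano2. No interval was computed for the densities of this list, so the order of the roles was not resolved. In odorant signalling and neuron maturation, 12 of 13 genes had a peak, and Cnga2, the X-linked channel subunit gene, was the exception. Adcy3, the adenylyl cyclase of the pathway, and Ano2, a chloride channel, had best folds of 7.27, and the channel subunit gene Cngb1 had 7.11. Gnal, the G protein subunit that receptors activate, and Stoml3, a membrane protein of the cilia, had 6.46. Among the 14 regulators of receptor choice and silencing, all had a peak, with 6.73 at the transcription factor genes Ebf3 and Ebf4 and 6.46 at the histone methyltransferase gene Ehmt1. The 9 genes of the olfactory placode and early neurogenesis all had a peak too, with a lower limit of 66.4%, so the interval also holds the share of all genes. Most of these genes are longer than the receptor genes, so the densities and not the shares or best folds can be set side by side. The best fold is the highest of 61 summits in Adcy3, 81 in Ano2 and 55 in Cngb1.

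Library 2 had no peak at any receptor gene of chromosome 2 (0 of 286 genes, which allows a share of up to 1.05%), where 0.142% of all protein-coding genes had one. It had 8 peaks on the chromosome, and none lay in a cluster or within its 1 Mb flanks. The nearest lay 1.77 Mb from cluster 2, at chr2:92168116-92168171. With so few peaks, a difference between receptor genes and other sequence was not detectable in library 2.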

How the data were processed

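The data were 2 deposited peak lists, 1 per library, of ChIP-seq with a GFP antibody on mouse heads at E10.5. Per the submitters' processing notes, MACS2 2.1.0, Bowtie 1.1.2, Trimmomatic 0.33 and bcl2fastq 2.17 were used, and hg38 and mm10 are both listed as builds. Roles and settings are not given in the sources used here. For each peak the deposited lists give a whole-number score made from 10 times the −log10 q, the summit's fold enrichment as a ratio, its −log10 p and −log10 q, and the summit offset. These are the authors' values and were compared only inside 1 list. Summits were counted from 1 and set against RefSeq gene positions of GRCm38.p6, read with Python 3.11.15, pandas 2.3.3 and scipy 1.17.1. The sequences are RefSeq's. Chromosome 2 was taken from its first to its last summit, and assembly gaps were not removed.

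Pileups were solved from the fold and the −log10 p, with a largest mismatch of 2.83e-05 on chromosome 2. Shares have Clopper-Pearson intervals, densities exact Poisson intervals and density ratios exact conditional binomial intervals. No test was run, since the labels give no second condition. Counting and interval steps were tested on simulated data. The members and lists were chosen with earlier results of these data known. Named genes were those with the 10 highest folds, the most summits, the best fold and the ends of each cluster, the longest runs without a peak, the genes next to the 1 kb limit and the 8 highest folds of the neuron list. Close copies were planned by protein, but protein sequences were not used here, and start windows took their place.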

Additional observations from a re-analysis of the deposited data

How the results depend on the processing

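The 46 alternative values of the ratios of receptor windows, and of intergenic cluster sequence, to the sequence they were set against ranged from 0.102 to 0.615. Those values leave the ratios of gene bodies to their ends and of flank genes to flank intergenic sequence out. Of 68 alternative values in all, 47 were classed as unchanged. For densities and ratios, that meant inside the interval of the main value. Gene counts had to stay within a fixed ratio of the main count, or equal to it in library 2. The fold difference had to keep its sign and shift by less than the distance between the quartiles of the receptor peaks. The number of receptor genes with a library 1 peak, 29, moved to 13 with a −log10 q of at least 5, 3 when only the top 10% by fold were kept, 19 in gene bodies and 116 within 5 kb. Under the same settings the density of 32.8 per Mb moved to 12.2, 2.81, 45.7 and 47.3. The ratio to the intergenic sequence of the clusters moved to 0.225 among the highest folds and 0.615 for gene bodies. The ratio to the flanks moved to 0.179 within 5 kb and 0.174 without cluster 2, and the ratio to flank gene windows to 0.166 for gene bodies, 0.172 within 5 kb and 0.172 without cluster 2. The ratio of intergenic sequence, clusters over flanks, moved to 0.422 with a −log10 q of at least 5, 0.416 outside 5 kb windows and 0.427 with summits within 1 kb merged. The ratio to the rest of chromosome 2 moved to 0.178 for gene bodies and 0.182 within 5 kb. The difference in median fold, receptor windows minus flanks, was -0.08 and turned to 0.19 with 5 kb windows. The cause of these changes was not tested, except that stricter lists hold fewer peaks by construction. Clusters joined at 250 kb were the same 3. Genes under 1.2 kb, an alternative chosen after seeing the data, gave 33.9 summits per Mb. No paired analysis was possible because both libraries belong to 1 group, and each value rests on 1 library, so none could be left out.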

Other observations

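Bins of 1 Mb along chromosome 2 that hold receptor genes varied in summits. The 8 bins with 10 or more receptor genes held 59 to 210 library 1 summits and several reach beyond a cluster. The 4 bins of 1 Mb that lay wholly inside cluster 2 held 40 to 49 receptor genes and 59 to 71 summits each. The 168 bins without a receptor gene had a median of 186 summits, and 25 of them had no more than 71. Those 25 bins held a median of 1 protein-coding gene and at most 14.

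Other protein-coding genes inside the clusters were few. Fads2b, a fatty acid desaturase family gene of 34844 bp, had 3 summits, or 81.4 per Mb of its window. Pramel7 and Pramel6 had none. Olfr367-ps, listed as protein-coding but named as a pseudogene and so not counted among the 286 genes, had 1 summit with a fold of 3.21. Receptor genes with a peak lay a median of 10.1 kb from the nearest other receptor gene (quartiles 7.56 and 16.1), and those without lay 13.1 kb away (9.01 and 19.2).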
